A study of Mus musculus with 8 samples.

Results

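The expression of 10 iron and heme handling genes, of 16505 genes in the deposited table, was followed in epididymal white adipose tissue, a visceral fat pad of male mice that lies on the epididymis. They were all the rows whose symbol was in a named list of iron and heme genes: Hmox1, Blvrb, Ftl1, Fth1, Slc40a1, Slc11a1, Slc11a2, Tfrc, Hfe and Cp. The list was chosen with earlier results of these data known, so the 10 genes are not a selection blind to their values. Messenger RNA had been sequenced from 4 wild-type (WT) C57BL/6 mice and 4 C57BL/6 mice with a Mir181 double-knockout, called the knockout here. Both groups were fed a high fat diet for 12 weeks, so no animal was on another diet. The comparison asks how gene expression in fat under this diet differs with the deletion, in a study of how the microbiota bears on fat inflammation and obesity. The labels name neither the deleted loci nor the age, litter or housing of the mice, and p-values therefore measure only the spread between these 8 samples, part of which may be technical. The table has no row for a miR-181 transcript, and the deletion could not be checked in it.

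Iron reaches cells bound to transferrin through the transferrin receptor, leaves them through the exporter ferroportin, and is stored in shells of ferritin light and heavy chains. Macrophages that clear dying cells also free iron from heme, which heme oxygenase opens to biliverdin and biliverdin reductases turn to bilirubin. Iron regulatory proteins bind hairpins called iron-responsive elements in messenger RNAs, where they hold back translation from the 5′ UTR and protect the message in the 3′ UTR. Fat holds iron-rich macrophages among its other cells.

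Hairpins of this kind were looked for first in the messages of the 10 genes. The pattern was strict, so an iron-responsive element of another form would not match it. The search, in protein-coding transcripts of GENCODE M21, asked for the loop CAGTGN with a last base other than G, a C placed 6 bases before it and 5 base pairs in the stem between, G-T pairs allowed. Of the 10 genes, 4 held a match. The matched stretches are shown 5′ to 3′ on the transcript's strand with the loop of 6 bases in capitals.
Fth1 5′ UTR: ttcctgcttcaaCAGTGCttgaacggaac
Ftl1 5′ UTR: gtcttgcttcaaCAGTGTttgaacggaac
Slc40a1 5′ UTR: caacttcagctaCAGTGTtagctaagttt
Tfrc 3′ UTR, first: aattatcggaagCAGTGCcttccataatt
Tfrc 3′ UTR, next: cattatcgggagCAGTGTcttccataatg
Tfrc 3′ UTR, next: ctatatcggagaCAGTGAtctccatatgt
Tfrc 3′ UTR, last: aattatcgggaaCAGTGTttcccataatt

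In Fth1 the hairpin lay at chr19:9982732-9982760 on the plus strand of GRCm38, and its loop began 126 bases before the coding sequence. The Ftl1 hairpin lay at chr7:45459779-45459807 on the minus strand with its loop 164 bases before the coding sequence, and that of Slc40a1 at chr1:45925465-45925493 on the minus strand, 218 bases before. The 4 matches of Tfrc stood between chr16:32631219 and chr16:32631738 on the plus strand, with loops beginning at bases 895, 1274, 1339 and 1386 of the 3′ UTR. A match of this kind was found in the 5′ UTR of 0.105% of 21877 genes and in the 3′ UTR of 0.457%. The 6 genes with no match were Hmox1, Blvrb, Slc11a1, Slc11a2, Hfe and Cp, which says only that these letters are not in the transcripts searched.

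The microRNAs of the miR-181 family share 1 seed, bases 2 to 8, given here in capitals from RefSeq.
miR-181a-5p: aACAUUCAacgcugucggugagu
miR-181b-5p: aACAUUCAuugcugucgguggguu
miR-181c-5p: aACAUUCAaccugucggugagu
miR-181d-5p: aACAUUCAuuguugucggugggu

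They are encoded at 3 pairs of loci in GRCm38.p6, and the labels do not say which of these the knockout lacks. Mir181a-1 (mature arm chr1:137966468-137966490) and Mir181b-1 lie together on chromosome 1, Mir181a-2 (chr2:38852741-38852763) and Mir181b-2 on chromosome 2, and Mir181c (chr8:84178924-84178945) and Mir181d on chromosome 8. The complement of the seed, TGAATGT, was present in the longest annotated 3′ UTR of 1 of the 10 genes and in 16.4% of the 21028 genes that have a 3′ UTR. That gene was Slc40a1, with the site in capitals starting at base 475 of a 3′ UTR of 1338 bases (chr1:45908915-45908941, minus strand of GRCm38).
Slc40a1 seed match: agttagataaTGAATGTtatccttatt
A seed match is a description of letters and no evidence of binding.

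Of the 10 genes, 6 were lower in the knockout, 1 was higher and 3 did not pass the test. Hmox1, Slc11a1, Slc40a1, Ftl1, Blvrb and Fth1 fell, in order of size from 8.42-fold to 1.79-fold, and Cp rose 2.30-fold. The differences of Tfrc, Slc11a2 and Hfe did not pass. All values below are log2 CPM, reads scaled to the total of each library, on a log2 scale; group values are means ± SD with n = 4, and differences are knockout minus WT ± SE from limma with Benjamini-Hochberg adjustment over all genes tested, called at an adjusted p under 0.05. All 10 genes passed the filter on low values that left 13797 genes. Calls were common in this comparison: 38.8% of tested genes were called in either direction, 16.1% lower and 22.7% higher, and the groups did not overlap for 37.4%. The groups did not overlap for the same 7 of the 10 genes that were called. The median difference of the 10 genes was −1.07, against 0.18 over all tested genes. Centring each library on its median moved the all-gene median to 0.03 and the share of higher genes among all calls from 58.6% to 46.4%, while quantile normalization gave 48.2% and voom with median-ratio size factors 44.9%. Differences relative to the median gene are therefore larger by 0.18 for genes that fell and smaller by 0.18 for Cp.

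**Figure D1:**
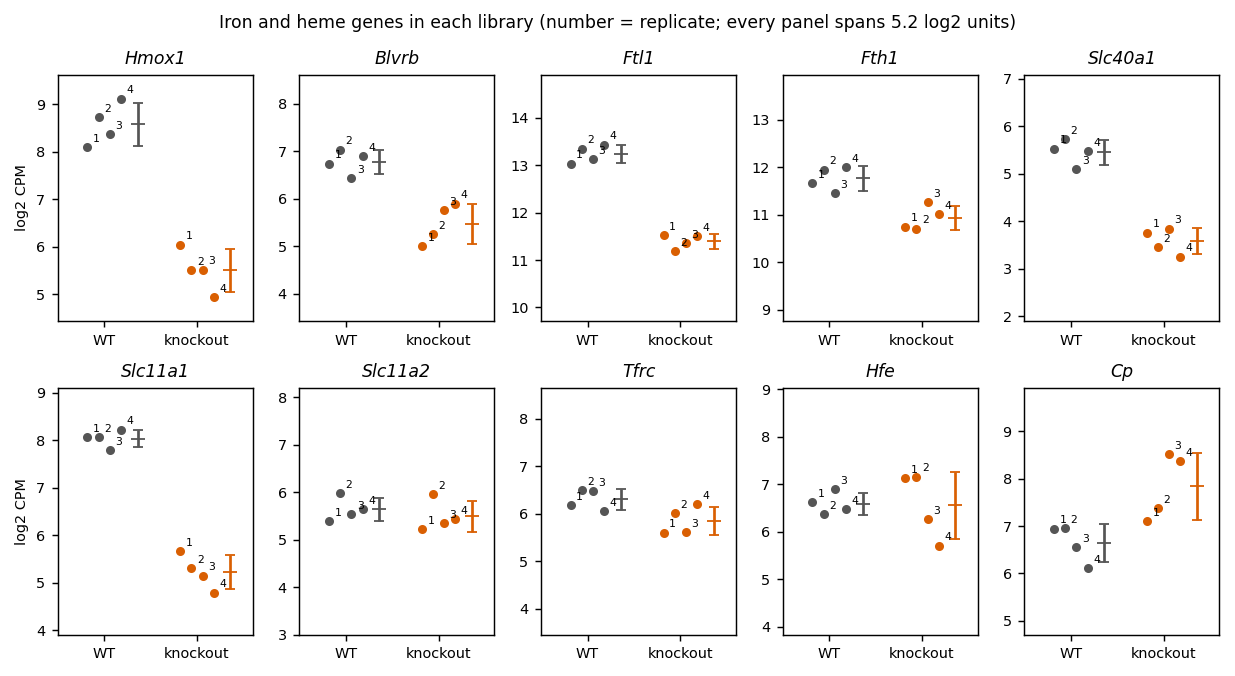
Level of each of the 10 genes in each library (log2 CPM, vertical axis; each panel spans the same 5.2 log2 units), WT in grey and knockout in orange, with the replicate number beside each point and the mean ± SD at the right of each group. For Hmox1, Blvrb, Ftl1, Fth1, Slc40a1 and Slc11a1 every knockout point lies below every WT point, for Cp above, and for Slc11a2, Tfrc and Hfe the groups overlap.

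The libraries were not alike in other respects. Totals ran from 3736881 to 76838584 reads, and the lowest read count behind any value of the 10 genes was 50, for Slc40a1 in the shallowest library. Ribosomal RNA took over 1% of reads in WT replicates 1, 3 and 4 and knockout replicate 1, epididymis markers over 1% in WT replicate 2 and knockout replicates 2 and 4, and red blood cell markers over 0.1% in knockout replicates 3 and 4. Differences within the classes with more and with less ribosomal RNA, each with a single library on one side and so without error, are given beside each gene. Macrophage markers were lower in the knockout for 16 of 16 genes, by a median of 5.21-fold and by 2.58-fold (Cd14) to 9.43-fold (Cd68). Their summed level was 10250 to 11710 CPM in WT and 1970 to 2797 CPM in the knockout. Not every macrophage gene fell, as Cd163, a macrophage receptor outside these 16, was 2.68-fold higher (limma adjusted p = 0.00138). Adgre1 was 9.38 ± 0.04 in WT and 6.47 ± 0.35 in the knockout, and Cd68 9.51 ± 0.25 and 6.27 ± 0.68. Markers of adipocytes, the defining cells of the tissue, were present in every library and called higher for 9 of 10 genes, with Adipoq at 9.34 ± 0.43 and 11.47 ± 0.24. In bulk tissue fewer cells of a type and less RNA per cell cannot be told apart.

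Among the heme breakdown genes, Hmox1, the inducible heme oxygenase that opens the heme ring and releases its iron, stood at 8.09, 8.73, 8.36 and 9.11 in the 4 WT libraries and at 6.04, 5.50, 5.52 and 4.94 in the knockout libraries. Every WT library lay above every knockout library, with a gap of more than 2 log2 units between the nearest ones. The difference was −3.07 ± 0.27 (limma adjusted p = 6.86e-05), and −2.48 and −3.41 within the ribosomal RNA classes. It was the largest of the 10 genes, and its adjusted p stayed at or below 0.000852 under each of the 23 alternatives tried.

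Blvrb, biliverdin reductase B, which also reduces flavins and is abundant in red blood cells, was 6.74, 7.04, 6.44 and 6.90 in WT and 5.0, 5.26, 5.77 and 5.90 in the knockout. All knockout libraries were below all WT libraries, and within the knockout the higher values were those of replicates 3 and 4. The difference was −1.30 ± 0.21 (limma adjusted p = 0.00168), and −1.69 and −1.40 within the classes. The 8 red blood cell markers in the table summed to 286.4 to 465.2 CPM in WT and to 822.1, 431.3, 3998 and 11710 CPM in knockout replicates 1 to 4. Without knockout replicates 3 and 4 the Blvrb difference was −1.65 ± 0.18 (limma adjusted p = 0.00092). The part of red blood cells in the Blvrb level was not tested.

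The remaining enzymes of this step, taken from a wider list of iron and heme genes, moved the same way by less. Blvra, the main biliverdin reductase, fell from 6.36 ± 0.13 to 5.26 ± 0.21 (−1.10 ± 0.13, limma adjusted p = 0.000257). Hmox2, the constitutive heme oxygenase, fell from 6.4 ± 0.10 to 5.80 ± 0.11 (−0.60 ± 0.10, limma adjusted p = 0.00135). The WT and knockout libraries did not overlap for Blvra or for Hmox2.

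**Figure D2:**
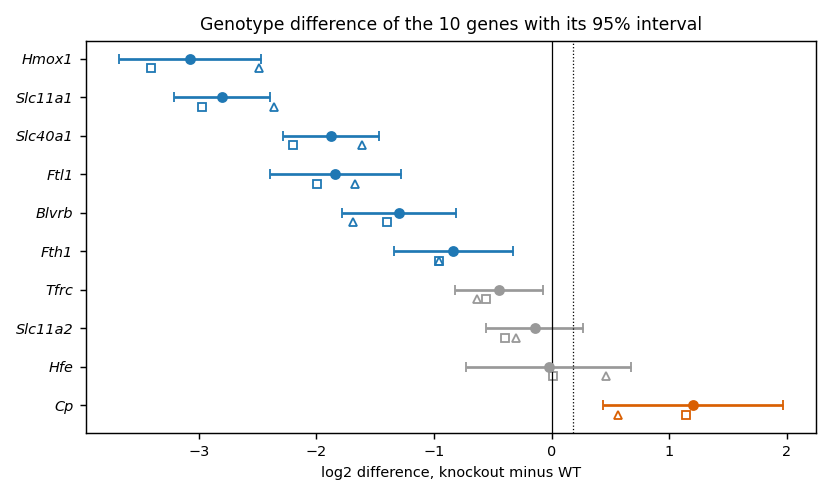
Difference of each of the 10 genes (log2, knockout minus WT, horizontal axis; filled points with 95% intervals from limma), blue where called lower, orange where called higher and grey where not called. Open triangles are the differences within the class with more ribosomal RNA and open squares within the class with less; the dotted line is the median of all tested genes at 0.18. Slc11a2 and Hfe have intervals that span 0, and all class values of the 6 lower genes lie below 0.

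Both ferritin chains fell, Ftl1 by 3.58-fold and Fth1 by 1.79-fold. Ftl1, the light chain, which supports iron core formation, stood at 13.03, 13.35, 13.12 and 13.43 in WT and at 11.52, 11.18, 11.35 and 11.50 in the knockout. The knockout libraries lay within 0.4 log2 units of each other and all below WT. The difference of Ftl1 was −1.84 ± 0.25 (limma adjusted p = 0.000549), and −1.67 and −2.0 within the classes.

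Fth1, the heavy chain, which carries the ferroxidase site, stood at 11.67, 11.95, 11.45 and 12.00 in WT and at 10.75, 10.70, 11.26 and 11.01 in the knockout. The groups did not overlap, but the highest knockout library, replicate 3, came close to the lowest WT library. The difference was −0.84 ± 0.22 (limma adjusted p = 0.0165), and −0.96 within either class. The call was lost with quantile normalization (−0.57, adjusted p = 0.0999), without the 3 libraries with over 1% epididymis reads (−0.70, adjusted p = 0.177) and without WT replicate 4 (−0.76, adjusted p = 0.0598). Ferritin genes have many near-identical processed copies in the mouse genome, and the labels and notes do not say how reads that match several places were counted, so the Ftl1 and Fth1 levels are uncertain to that extent.

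The ratio of Ftl1 to Fth1 CPM, which needs no scaling between libraries, was 2.57, 2.63, 3.19 and 2.69 in WT and 1.71, 1.40, 1.07 and 1.41 in the knockout. Each WT library had a higher ratio than each knockout library. On the log2 scale the ratio was 1.47 ± 0.14 in WT and 0.46 ± 0.28 in the knockout, a difference of −1.0, given as a description because it was looked at with both genes' values known. Ncoa4, the receptor that carries ferritin to autophagy, was 7.90 ± 0.08 and 8.13 ± 0.41 and did not pass (0.22 ± 0.19, limma adjusted p = 0.364). The iron chaperones Pcbp1 and Pcbp2, which load ferritin, differed by −0.12 and 0.00 and did not pass either, so 0 of the 3 tested genes of this sub-list were called.

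Slc40a1 encodes ferroportin, the exporter of cellular iron. It was 5.53, 5.72, 5.10 and 5.47 in WT and 3.76, 3.46, 3.85 and 3.26 in the knockout. All 4 knockout libraries were below the lowest WT library by more than 1 log2 unit. The difference was −1.88 ± 0.18 (limma adjusted p = 0.00011), a 3.67-fold lower level, and −1.61 and −2.20 within the classes. Slc40a1 also carries the only miR-181 seed match among the 10 genes. Whether that site bears on its level was not tested.

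Of the pair of divalent metal transporters of the Slc11 family, 1 fell. Slc11a1, known as Nramp1, moves iron and manganese out of the phagosomes of macrophages. It stood at 8.06, 8.06, 7.79 and 8.22 in WT and at 5.66, 5.31, 5.15 and 4.79 in the knockout. Its WT libraries spanned less than 0.5 log2 units, and the groups were far apart. The difference was −2.80 ± 0.18 (limma adjusted p = 1.93e-05), a 6.98-fold lower level, and −2.36 and −2.98 within the classes.

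Slc11a2, known as DMT1, carries iron across the membrane in most cell types, including out of endosomes after transferrin uptake. It was 5.39, 5.97, 5.53 and 5.64 in WT and 5.22, 5.96, 5.35 and 5.43 in the knockout. The groups overlapped, with replicate 2 the highest in both. The difference was −0.15 ± 0.18 with a 95% interval of −0.56 to 0.27 (limma adjusted p = 0.552), so a fall as large as that of Slc11a1 lies outside this interval. Within the ribosomal RNA classes the Slc11a2 difference was −0.30 and −0.39. The interval of Slc11a1 was −3.21 to −2.40, and the difference between the 2 genes was not tested.

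Uptake and sensing genes showed smaller differences. Tfrc, the transferrin receptor, was 6.18, 6.50, 6.48 and 6.06 in WT and 5.6, 6.01, 5.62 and 6.20 in the knockout. Knockout replicate 4 lay within the WT range and the other 3 knockout libraries below it. The difference was −0.45 ± 0.17 with a 95% interval of −0.83 to −0.07, and did not pass after adjustment (limma adjusted p = 0.0601). Within the ribosomal RNA classes it was −0.64 and −0.56. Tfrc did pass with median centring (−0.59, adjusted p = 0.0066), quantile normalization (−0.49, adjusted p = 0.0221), median-ratio size factors (−0.59, adjusted p = 0.00924), array weights (−0.46, adjusted p = 0.0411) and a term for the ribosomal RNA class (−0.60, adjusted p = 0.0273). It also passed without the libraries with epididymis reads (−0.63, adjusted p = 0.0248) and without knockout replicate 4 (−0.56, adjusted p = 0.0266).

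Hfe, the membrane protein mutated in hereditary hemochromatosis, which binds the transferrin receptor, was 6.63, 6.37, 6.89 and 6.48 in WT and 7.13, 7.16, 6.27 and 5.71 in the knockout. The knockout libraries split, replicates 1 and 2 above all WT libraries and replicates 3 and 4 below them. The mean difference was −0.03 ± 0.31 with a 95% interval of −0.73 to 0.67 (limma adjusted p = 0.952), and 0.46 and 0.01 within the classes. Replicates 3 and 4 are the libraries with the most red blood cell reads, and without them Hfe was higher in the knockout by 0.55 ± 0.15 (limma adjusted p = 0.0369). Without knockout replicate 4 alone the difference was 0.26 (limma adjusted p = 0.425). Whether red blood cells had a part in this was not tested.

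Cp was the one gene of the 10 that rose. It encodes ceruloplasmin, the copper ferroxidase that oxidizes iron for loading onto transferrin and that the liver secretes into plasma. Cp stood at 6.94, 6.95, 6.55 and 6.11 in WT and at 7.10, 7.37, 8.51 and 8.37 in the knockout. The groups did not overlap, knockout replicates 1 and 2 lying just above the highest WT libraries and replicates 3 and 4 more than 1 log2 unit above. The difference was 1.20 ± 0.34 (limma adjusted p = 0.0208), and 0.57 and 1.14 within the classes. It moved to 0.60 ± 0.25 (limma adjusted p = 0.121) without knockout replicates 3 and 4, and to 0.85 (adjusted p = 0.0767) with a term for the ribosomal RNA class. Leaving out WT replicate 3 (1.17, adjusted p = 0.0526), WT replicate 4 (1.02, adjusted p = 0.0645), knockout replicate 3 (0.98, adjusted p = 0.0542) or knockout replicate 4 (1.02, adjusted p = 0.0519) also ended the call.

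Markers of other cell types were read out in the libraries beside Cp. The 6 liver markers in the table had a low summed level, 3.92 to 12.5 CPM in WT and 14.2 to 27.3 CPM in the knockout, and of the 2 tested 1 was called higher and 1 lower. The higher one was Alb, albumin, at −3.03, 0.34, 1.09 and −0.75 in WT and 3.70, 3.22, 3.88 and 4.63 in the knockout (limma adjusted p = 0.00253), so it moved the same way as Cp, and no read of it was counted in WT replicate 1. The lower one was Ahsg, at 1.82 ± 0.61 and −0.42 ± 0.57 (limma adjusted p = 0.00412). Mesothelial markers, 4 of 6 called higher, summed to 72.2 to 115 CPM in WT and to 152, 165, 258 and 357 CPM in knockout replicates 1 to 4, with the higher sums in the same replicates 3 and 4 as Cp. Within WT, Krt19 (4.75), Upk1b (4.35) and Upk3b (4.94) were highest in replicate 2, a library with over 1% epididymis reads. Msln, Lrrn4 and Wt1 were not, and what the epididymis adds to these sums was not tested. Endothelial markers were called higher for 6 of 6 genes. The part of these cells in the Cp level was not tested.

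**Figure D3:**
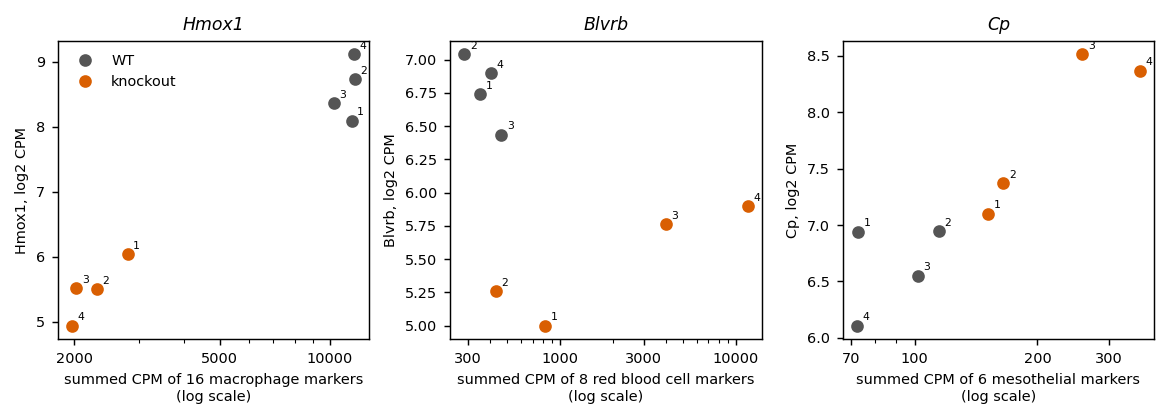
Hmox1, Blvrb and Cp (log2 CPM, vertical axes) against the summed CPM of macrophage, red blood cell and mesothelial markers of the same library (horizontal axes, log scale), WT in grey and knockout in orange with the replicate number beside each point. Macrophage sums are 1970 to 2797 CPM in the knockout and 10250 to 11710 CPM in WT, and knockout replicates 3 and 4 stand apart in red blood cell sums and highest in mesothelial sums.

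Compared per length, the 10 genes covered a wide range of levels. Per kilobase of the principal GENCODE transcript, the mean level in WT was 9996 CPM for Ftl1, 3793 for Fth1, 251.5 for Hmox1, 113.7 for Slc11a1 and 108.1 for Blvrb. Below these came Hfe at 27.3, Cp at 25.4, Slc11a2 at 16.6, Tfrc at 16.3 and Slc40a1 at 13.2 CPM per kilobase. Slc11a1 and Blvrb overlapped in WT, as did neighbours among the 5 lowest genes, whereas Ftl1, Fth1 and Hmox1 were each separate from the gene next in order. In the knockout Cp, at 62.0 ± 28.6 CPM per kilobase, came after Ftl1 (2785) and Fth1 (2125) and was followed by Blvrb (44.8), Hmox1 (29.9), Hfe (28.9), Slc11a1 (16.6), Slc11a2 (15.2), Tfrc (12.0) and Slc40a1 (3.6). Each of these neighbours overlapped in the knockout except Fth1 with Cp and Tfrc with Slc40a1. Hmox1 thus went from the third level to the fifth, Slc11a1 from the fourth to the seventh and Cp from the seventh to the third.

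Levels were also set against the macrophage markers of the same library. Each gene's log2 CPM was taken minus the median of the 16 macrophage markers in that library, as a description with no test. This reference was itself 2.66 lower in the knockout, so a gene with no difference in CPM reads 2.66 higher on this scale. A value between 0 and 2.66 is a fall in CPM smaller than that of this reference, not of each marker. Single markers differed by −1.37 (Cd14) to −3.24 (Cd68). On this scale Slc11a1 was −0.99 ± 0.13 in WT and −1.13 ± 0.14 in the knockout, and Hmox1 −0.45 ± 0.44 and −0.86 ± 0.21, and for each of them the groups overlapped. For the other 8 genes the knockout values lay above the WT values. The shift was 0.78 for Slc40a1, 0.82 for Ftl1, 1.36 for Blvrb and 1.82 for Fth1. These had fallen in CPM by less than this reference. Slc40a1 (−1.88) and Ftl1 (−1.84) still fell by more than Csf1r, C1qa, Aif1 and Cd14 (−1.52 to −1.37), and by less than the other markers. The shift was 2.21 for Tfrc, 2.52 for Slc11a2, 2.63 for Hfe and 3.86 for Cp. How much of each gene's RNA came from macrophages was not measured in bulk tissue.

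**Figure D4:**
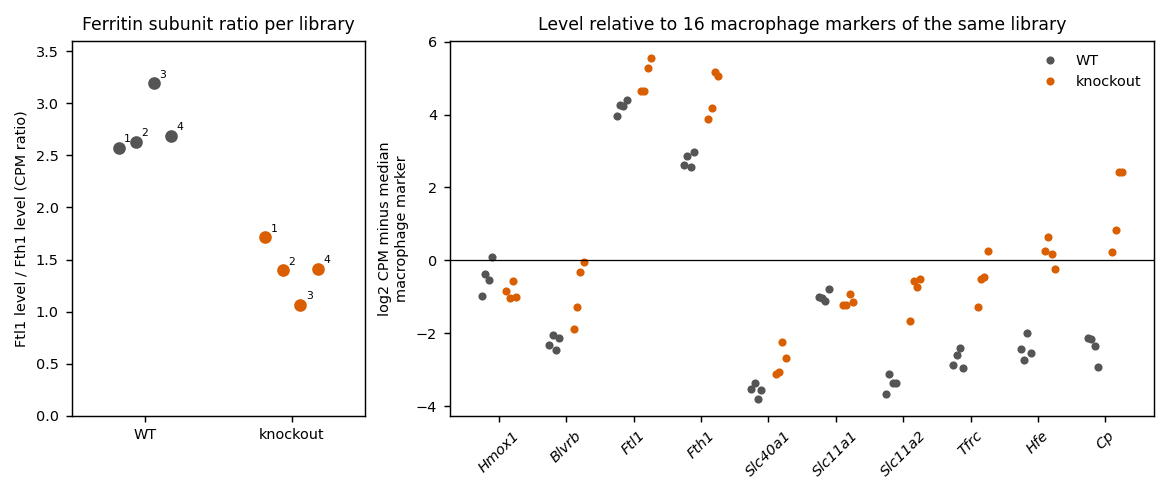
Left, the CPM ratio of Ftl1 to Fth1 in each library (vertical axis from 0), WT in grey at 2.57 to 3.19 and knockout in orange at 1.07 to 1.71. Right, each gene's log2 CPM minus the median of 16 macrophage markers of the same library (vertical axis), 1 point per library. Hmox1 and Slc11a1 overlap between the groups and the other 8 genes lie higher in the knockout, where a gene with no difference in CPM would lie 2.66 higher.

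The genes with the nearest profiles were found by the root-mean-square difference of mean-centred log2 CPM over the 8 libraries, a description with no test. For Hmox1 these were Timp1 (0.0934), Gm5150 (0.171) and Gpr137b (0.223). For Slc11a1 they were Gpr137b-ps (0.0858), Milr1 (0.0901) and Plxdc1 (0.108), and for Slc40a1 the complement genes C1qb (0.12) and C1qc (0.124) and then Rgs10 (0.149). C1qb is also 1 of the 16 macrophage markers, and Gpr137b and its annotated copy Gpr137b-ps may share reads. Ftl1 lay nearest to Pcna (0.111), Ctsa (0.116) and Casp1 (0.123), while Fth1 lay nearest to Trim47 (0.141), Cnrip1 (0.143) and Gsr (0.147). Those of Blvrb were Nrm (0.112), Hpse (0.149) and Gm4980 (0.165), and those of Cp were Endog (0.166), Slc4a4 (0.176) and Rbm38 (0.179). No named neighbour was common to any of these 7 genes. The values were centred but not scaled, so a neighbour must also match the size of the genotype difference. Genes with differences of unlike size therefore share few neighbours by construction.

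The wider iron and heme list held 65 further genes, of which 59 were in the table and 56 were tested. Calls came to 18 higher and 13 lower, 55.4% of those tested against 38.8% of all tested genes. The median difference was 0.25 against 0.18 over all tested genes. Counts of the sub-lists below stand beside shares over all tested genes of 22.7% called higher and 16.1% called lower. Without knockout replicates 3 and 4, the libraries with the most red blood cell reads, the calls came to 9 higher and 8 lower. Among the genes named below, Hpx (−1.82), Trf (0.42), Cybrd1 (0.82), Steap2 (0.67), Hephl1 (−0.66), Nfs1 (0.37), Alad (1.25), Urod (0.70) and Nr1h3 (0.26) then no longer passed. With a term for the ribosomal RNA class, Trf (0.70), Steap2 (1.13), Hephl1 (−1.46), Nfs1 (0.39) and Nr1h3 (0.49) did not pass. Hamp, which encodes the iron hormone hepcidin, was not analysed here.

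Heme capture and transport divided. Of 9 tested genes of heme breakdown and transport other than Hmox1 and Blvrb, 5 fell, 1 rose and 3 did not pass. Cd163, the macrophage receptor for hemoglobin bound to haptoglobin, rose from 4.67 ± 0.18 to 6.09 ± 0.49 (1.42 ± 0.23, limma adjusted p = 0.00138), with no overlap of the groups. Lrp1, the receptor for heme bound to hemopexin, fell from 10.55 ± 0.09 to 9.47 ± 0.25 (−1.08 ± 0.16, limma adjusted p = 0.000909). Hpx, hemopexin itself, was low in both groups, at 1.76 ± 0.89 and −0.30 ± 0.54, and fell (limma adjusted p = 0.0118). Hp, haptoglobin, was abundant at 11.46 ± 0.22 and 11.23 ± 0.40 and did not pass (limma adjusted p = 0.489).

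Iron uptake and reduction held 12 tested genes, 4 higher and 3 lower. Steap4, a metalloreductase of adipocytes, rose from 7.84 ± 0.33 to 9.27 ± 0.29 (1.43 ± 0.20, limma adjusted p = 0.000633). Steap3, the endosomal ferrireductase that works with the transferrin receptor, fell from 6.73 ± 0.03 to 5.83 ± 0.28 (−0.90 ± 0.14, limma adjusted p = 0.00104). Trf, transferrin, rose by 0.77 ± 0.22 (limma adjusted p = 0.0217), which did not pass without WT replicate 4 (0.74, adjusted p = 0.0687) or without knockout replicate 3 (0.68, adjusted p = 0.061), with median centring (0.63, adjusted p = 0.0523) or without the libraries with epididymis reads (0.77, adjusted p = 0.0646). Cybrd1 and Steap2, reductases near the lower end of the levels, rose by 1.27 and 1.24. Both calls were lost with quantile normalization (0.90 and 0.97) and with voom and median-ratio size factors (0.94 and 1.02), and that of Steap2 without WT replicate 1 (1.16, adjusted p = 0.0536) and without knockout replicate 3 (1.04, adjusted p = 0.0539).

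The ferroxidases related to Cp went in opposite directions. Heph, hephaestin, rose from 5.88 ± 0.38 to 7.12 ± 0.45 (1.24 ± 0.25, limma adjusted p = 0.0044), and the groups did not overlap. Hephl1 was 2.95, 2.47, 3.57 and 2.42 in WT and 2.31, 2.07, −0.83 and −0.59 in the knockout, and it fell at the edge of the threshold (−2.11 ± 0.74, limma adjusted p = 0.0496). Leaving out any 1 library other than knockout replicates 1 and 2 ended the Hephl1 call, with differences of −2.26 to −1.59. In all it was lost under 14 of 22 alternatives, among them no filter, no variance trend, a robust fit, the replicate block, median-ratio size factors and leaving out the libraries with epididymis reads (adjusted p = 0.0507 to 0.0631).

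Among the 3 tested genes of iron sensing, 1 rose. Aco1, the iron regulatory protein that doubles as cytosolic aconitase, rose from 7.19 ± 0.15 to 8.0 ± 0.39 (0.80 ± 0.19, limma adjusted p = 0.00859). Ireb2, the other iron regulatory protein, was 6.46 ± 0.16 and 6.47 ± 0.12 and did not pass (0.01 ± 0.11, limma adjusted p = 0.966). Of the 4 tested genes around the hepcidin signal, the ligand Bmp6 rose by 1.43 ± 0.21 (limma adjusted p = 0.000858) and Neo1, a partner of hemojuvelin, by 0.96 ± 0.12 (limma adjusted p = 0.000373), while Bmp2 and B2m did not pass.

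Of 7 tested mitochondrial iron genes 4 were higher. The iron-sulfur cluster genes Glrx5, Iscu and Nfs1 rose by 0.84, 0.66 and 0.56, and the call of Nfs1 was lost without WT replicate 1 (0.48, adjusted p = 0.0543) and without the libraries with epididymis reads (0.59, adjusted p = 0.0756). Heme synthesis held 9 tested genes, 4 higher and 1 lower. Alas1, the rate-limiting first enzyme outside red cells, fell from 8.38 ± 0.09 to 7.82 ± 0.10 (−0.57 ± 0.10, limma adjusted p = 0.00193). Downstream of it, Alad rose by 1.65, Urod by 0.95 and Uros by 0.68. The groups overlapped for Alad and Urod and not for Uros. Alas2, the red cell form of the first enzyme, was 4.17 ± 0.48 in WT and 6.70 ± 2.36 in the knockout and did not pass (limma adjusted p = 0.0694), with 7.62 and 9.54 in knockout replicates 3 and 4.

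**Figure D5:**
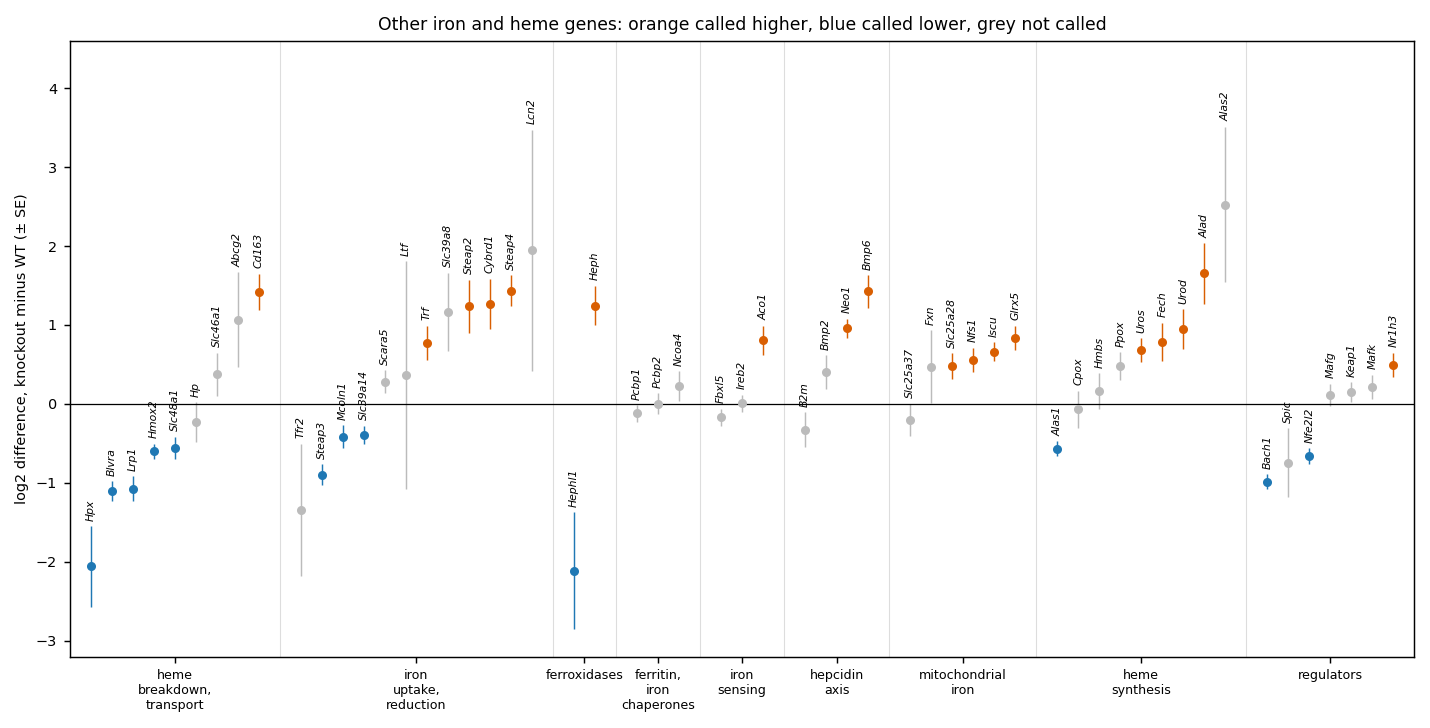
Differences of the tested genes of the wider list, 1 of them not shown (log2, knockout minus WT ± SE, vertical axis), grouped by role along the horizontal axis and ordered by size within a role; orange is called higher, blue called lower and grey not called. Calls run in both directions, and the lower ones include 5 of the 9 heme breakdown and transport genes (55.6%, against 16.1% of all tested genes).

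Regulators of heme and oxidant genes were read in the same fit. Bach1, the heme-binding repressor of Hmox1, fell from 6.48 ± 0.09 to 5.49 ± 0.12 (−0.99 ± 0.10, limma adjusted p = 0.000123). Nfe2l2, which encodes the activator Nrf2, fell from 7.33 ± 0.10 to 6.67 ± 0.15 (−0.66 ± 0.10, limma adjusted p = 0.00117). A repressor and an activator of the same gene were both lower, with no overlap of the groups for either. Of the 7 tested regulators 2 fell, 1 rose and 4 did not pass, so 42.9% were called, near the 38.8% of all tested genes. The riser was Nr1h3 (0.49 ± 0.16, limma adjusted p = 0.0343), whose groups overlapped. Its call was lost without WT replicate 1, 2 or 4 or knockout replicate 3 or 4 (0.40 to 0.51). It was also lost with median centring (0.35, adjusted p = 0.125), median-ratio size factors (0.37, adjusted p = 0.0952), no variance trend (adjusted p = 0.0532) and without the libraries with epididymis reads (0.48, adjusted p = 0.104).

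Other targets of Nrf2 were followed as a list of 9 genes, of which 4 fell, 0 rose and 5 did not pass in limma. The share called was 44.4%, near the 38.8% of all tested genes, of which 16.1% were called lower. Srxn1, sulfiredoxin, fell from 7.72 ± 0.24 to 5.43 ± 0.24 (−2.28 ± 0.16, limma adjusted p = 2.65e-05). Gclm, a subunit of the glutathione-making ligase, fell by 1.23 ± 0.23 on the log2 scale, Txnrd1, thioredoxin reductase, by 1.00 ± 0.10 and Gsr, glutathione reductase, by 0.68 ± 0.17. The Gsr call was lost without the libraries with epididymis reads (−0.55, adjusted p = 0.0649). Nqo1 differed by −0.16 and Gclc by −0.35, and neither passed (limma adjusted p = 0.749 and 0.113). In promoter windows of 300 bases around the start site, which RefSeq gave for 7 of the 10 iron and heme genes, the antioxidant response element core TGACNNNGC was searched on both strands. It was found for Hfe and in 12.4% of all 32851 windows, and not in the windows of Blvrb, Ftl1, Fth1, Slc11a1, Tfrc or Cp, while Hmox1, Slc40a1 and Slc11a2 were not searched. Sequence outside these windows of 300 bases was not searched, so no match does not mean that a gene lacks the element. A match is a description of letters and no evidence of binding.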

How the data were processed

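The authors deposited 1 table of voom log2 CPM for 16505 genes in 8 libraries. Per the labels' protocols, libraries were made with a stranded mRNA kit and read as 75-base single ends; per the submitters' processing notes, Trimmomatic, TopHat2, featureCounts and limma were used with mm9. Versions, strand setting and the rule for reads with several matches: not given in the sources used here. Whole reads were worked out from the log2 values (100% within 0.01 read, 0.5 added per count), and library totals were 3736881 to 76838584 reads.

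Columns were matched to samples by title. Genes averaging 0 log2 CPM or more over all libraries were tested with limma 3.58.1 (R 4.3.3) by lmFit and trended eBayes, group as the only term, 4 libraries against 4, two-sided. The code was tested on simulated data. The 10 genes and all lists were chosen with earlier results of these data known. Named genes were the 10, up to 4 called genes with the smallest p of each sub-list, a set of standing names (Trf, Hmox2, Blvra, Cd163, Hp, Hpx, Aco1, Ireb2, Ncoa4, Bach1 and Nfe2l2) and 3 nearest profiles per called gene. One gene that this rule names is not reported here. Pcbp1, Pcbp2, Bmp2, B2m, Alas2, Nqo1, Gclc, Alb and Ahsg were named after their values were seen.

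Alternatives were the log transform, filters, scalings, variance models, weights, a replicate block, voom on whole reads, thinned reads, the ribosomal RNA class as a covariate, libraries without epididymis or red blood cell reads, and leaving out each library. Of the 12 red blood cell, 8 liver and 65 iron and heme genes listed, those missing from the table were not analysed here. Sequences came from RefSeq tables (GRCm38.p6) and GENCODE M21 (GRCm38), another build than mm9, so they served for letters and lengths and not to place reads. Plots were drawn with matplotlib 3.10.9.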

Additional observations from a re-analysis of the deposited data

Results flagged for a closer look

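In 5 of 86 groups checked (both genotypes of 43 named genes), 1 library lay far from the other 3, by a gap over Dixon's critical share of the group's range; chance flags about 1 in 20 groups. None was a group of the 10 iron and heme genes themselves. Heph stood at 6.45 log2 CPM in WT replicate 3 against 5.67 to 5.71 in the other WT libraries. Bmp6 stood at 3.005 in the same library against 2.33 to 2.4. Uros was 4.65 in knockout replicate 4 against 4.40 to 4.41, and Alad was 4.96 in knockout replicate 1 against 6.33 to 6.56. Hp was 10.64 in knockout replicate 3 against 11.37 to 11.47 in the other knockout libraries.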

How the results depend on the processing

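Of the 10 genes, Hmox1, Blvrb, Ftl1, Slc40a1 and Slc11a1 kept their direction and their call under each of the 23 alternatives, and Slc11a2 kept its direction and did not pass in any. The count of called genes among the 10 was 7 or 8 under all alternatives other than leaving out a library, where it ran from 5 to 7. All called genes numbered 5353, and 3626 to 7037 over all alternatives. Called genes of the wider list numbered 31, and 23 to 33 when 1 library was left out; they came to 17 without the libraries with over 0.1% red blood cell reads. Values near 0 changed sign and did not pass except where stated. Hfe was 0.24 with a term for the ribosomal RNA class, 0.0299 without libraries with epididymis reads, 0.55 without libraries with red blood cell reads (limma adjusted p = 0.0369) and −0.22 to 0.26 leaving out 1 library. Hp was 0.0019 with quantile normalization, and Ncoa4 −0.10 without libraries with red blood cell reads. Ireb2 was −0.14 with median centring, −0.0037 with quantile normalization, −0.0083 with array weights, −0.16 with voom on whole reads, −0.0189 with the ribosomal RNA class and −0.0562 to 0.0613 leaving out 1 library. Why was not tested. Same-numbered WT and knockout libraries correlated at 0.362, 0.79, 0.239 and −0.359 in their deviations from the group means, so the numbers were not taken as pairs. With the replicate block 5368 genes, 7 of the 10 and 29 of the wider list were called. Depth limits Slc40a1 most, with 50 reads in the shallowest library.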
